A study of Homo sapiens with 12 samples.

Results

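The DNAJ genes encode the J proteins, also called HSP40 proteins. They were taken here as every gene whose symbol is DNAJ, one of the letters A, B or C and a number, which gave 42 of the 19516 genes with a symbol in the table: 4 of subfamily A, 12 of subfamily B and 26 of subfamily C. Their transcripts were measured by RNA sequencing in 2 established human breast cancer lines, MDA-MB-231 and HCC1937, both from triple-negative tumours. MDA-MB-231 cells were grown in DMEM for 72 h with 140 µg/mL of an aqueous extract of the succulent plant Kalanchoe pinnata (libraries E7, E8 and E9) or without extract (E1, E2 and E3). HCC1937 cells were grown in RPMI for 72 h with 66 µg/mL of the extract (E31, E32 and E33) or without it (E25, E26 and E27), so that line, medium and concentration cannot be told apart. Groups were taken from the sample titles. The cell line field of the labels goes against them, since it counts upward from sample to sample (MDA-MB-232, HCC1938 and so on), so the identity of the lines rests on the titles. The labels do not say that the 3 libraries of a group came from separate cultures, so p-values reflect how much these libraries vary, and that variation may be technical alone.

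J proteins are the partners that bring HSP70 chaperones to their clients. Their J domain stimulates HSP70 to hydrolyse ATP, which closes the chaperone on its client. Subfamily A members resemble bacterial DnaJ and carry a zinc-binding region, subfamily B members lack that region, and subfamily C members share little beyond the J domain and serve particular places in the cell, among them the endoplasmic reticulum, mitochondria, ribosomes, the spliceosome and clathrin-coated vesicles. Some members, DNAJB1 above all, are induced by heat shock through the factor HSF1, which binds repeated GAA units called heat shock elements.

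Promoter windows are shown for the 4 tested members of subfamilies A and B in which such an element was found, since DNAJB1, the member whose 2 extract responses lay furthest apart, is one of them. RefSeq (GRCh38.p14) gave windows of 250 bases before to 50 bases after a transcript start. For each member the window nearest the start of its principal annotated transcript was taken. That window can lie inside the gene, as for DNAJB1 and DNAJB4, and positions below are counted from its RefSeq start. Of the 42 members 39 had a window, and DNAJC1, DNAJC22 and DNAJC24 had none. Capitals mark the matches. The heat shock motifs searched were GAANNTTC and TTCNNGAA, each of which reads alike on both strands. The 3-unit GAANNTTCNNGAA, in which those overlap, was searched on both strands. The windows lie at chr19:14518348-14518647 (DNAJB1, minus strand), chr1:78004689-78004988 (DNAJB4, plus strand), chr7:157336754-157337053 (DNAJB6, plus strand) and chr9:33025023-33025322 (DNAJA1, plus strand), and are written 5′ to 3′ along the gene.
DNAJB1: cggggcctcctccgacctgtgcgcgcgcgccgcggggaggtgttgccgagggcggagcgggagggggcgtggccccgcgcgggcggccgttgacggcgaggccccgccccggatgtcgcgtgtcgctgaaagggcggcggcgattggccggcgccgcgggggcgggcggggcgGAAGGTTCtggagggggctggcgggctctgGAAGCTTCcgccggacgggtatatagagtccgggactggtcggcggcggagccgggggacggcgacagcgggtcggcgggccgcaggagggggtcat
DNAJB4: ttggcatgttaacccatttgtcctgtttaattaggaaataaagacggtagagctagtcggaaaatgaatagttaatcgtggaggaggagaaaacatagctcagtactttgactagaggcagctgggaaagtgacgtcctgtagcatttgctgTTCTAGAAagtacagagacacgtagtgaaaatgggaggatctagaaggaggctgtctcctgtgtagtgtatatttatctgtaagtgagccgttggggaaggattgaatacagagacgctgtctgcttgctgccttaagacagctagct
DNAJB6: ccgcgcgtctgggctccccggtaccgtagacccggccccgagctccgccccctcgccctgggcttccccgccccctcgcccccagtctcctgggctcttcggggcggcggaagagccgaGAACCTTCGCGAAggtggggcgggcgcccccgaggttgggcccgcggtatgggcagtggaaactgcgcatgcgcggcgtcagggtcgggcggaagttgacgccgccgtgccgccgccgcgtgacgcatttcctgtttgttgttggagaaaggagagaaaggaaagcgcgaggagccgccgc
DNAJA1: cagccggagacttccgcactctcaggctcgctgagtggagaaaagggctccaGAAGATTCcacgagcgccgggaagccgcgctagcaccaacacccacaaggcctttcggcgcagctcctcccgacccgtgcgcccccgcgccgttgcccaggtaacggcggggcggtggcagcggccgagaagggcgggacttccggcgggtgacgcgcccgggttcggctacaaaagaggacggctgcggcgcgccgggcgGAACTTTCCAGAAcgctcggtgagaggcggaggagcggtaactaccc
In DNAJB1, matches began 77 and 47 bases before the start. The match in DNAJB4 began 98 bases before it, and DNAJB6 held the 3-unit form 131 bases before it. In DNAJA1 a match began 198 bases before the start, and the 3-unit form began at base 3 after it.

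A 2-unit element occurred in 6 of the 39 member windows, the other two being DNAJB7 and DNAJC15, and in 13.5% of all 35116 windows of the same length. The 3-unit form stood in 2 member windows and in 0.49% of all windows. The unfolded protein response element TGACGTGG (either strand) was found in the window of DNAJC10 and in 0.729% of all windows, and the ATF4 element TGATGNAAT (either strand) in no member window and in 0.991% of all windows. A match is a description of letters, not a site or a cause, and no match says only that these letters are not in this window.

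Library totals ran from 16170342 to 31337259 counts, so that 3 counts in a library correspond to 0.0990 to 0.213 CPM. CPM here are counts scaled for depth and by TMM, edgeR's method for making libraries comparable. E7 stood apart from E8 and E9: mitochondrially encoded genes took 10.7% of its counts, against 4.63% and 4.78%, and its lowest Spearman correlation within the group was 0.966, while no pair of replicates in the other groups was below 0.9968. Its group had a biological coefficient of variation of 0.296, against 0.0415 to 0.0451 for the other groups. Of 7 epithelial markers, CDH1 and KRT5 were at 0 in both MDA-MB-231 groups, but KRT8 and KRT18 averaged 472 and 273 CPM in its controls. The 7 summed to 1499 to 2625 CPM in MDA-MB-231 with extract and 730 to 777 CPM in its controls. In HCC1937 they summed to 10230 to 10373 CPM with extract and 3938 to 4063 CPM in the controls. Mesenchymal markers (4) summed to 3608 to 5939 CPM in MDA-MB-231 with extract and 4169 to 4294 CPM in its controls. In HCC1937 their sums were 12.5 to 15.2 CPM with extract and 59.2 to 62.3 CPM in the controls. Leukocyte markers (5 genes) summed to at most 7.35 CPM in any library, endothelial markers (3) to at most 24.5 CPM and fibroblast markers (5) to at most 26.6 CPM. ESR1 averaged at most 7.19 CPM in any group and PGR at most 2.88 CPM, and ERBB2 averaged 51.5 to 148 CPM over the groups.

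Of the 42 members, 39 had enough reads to be tested. DNAJB8 had no reads in any library. DNAJB7 had 0, 3 and 1 counts in MDA-MB-231 with extract, none in its controls, none in HCC1937 with extract, and 7, 6 and 12 counts in HCC1937 controls. The single exon of DNAJB7 lies antisense to an exon of XPNPEP3, and the sources used here do not say whether counting used strand, so reads of the 2 genes cannot be told apart. DNAJB13, known from sperm flagella and motile cilia, had at most 7 counts in a library.

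The comparison of extract with control asks in each line which members the extract changed. In MDA-MB-231, 9 of the 39 tested members rose, 17 fell and 13 did not pass an adjusted p of 0.05 (edgeR's quasi-likelihood test, Benjamini-Hochberg over 14133 genes). In that comparison 65.8% of all tested genes were called, 33% higher and 32.8% lower. The member share of 66.7% was near that background, with more falls than rises (43.6% and 23.1% of members). In bulk RNA, fewer cells with a transcript and less of it per cell cannot be told apart. The median log2 fold change was -0.17 over members and 0.00 over all genes tested. In HCC1937, 12 members rose, 17 fell and 10 did not pass, or 74.4% called, against a background of 71.8% (32.7% higher and 39.1% lower). The median was -0.09 over members and -0.16 over all genes tested.

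**Figure D1:**
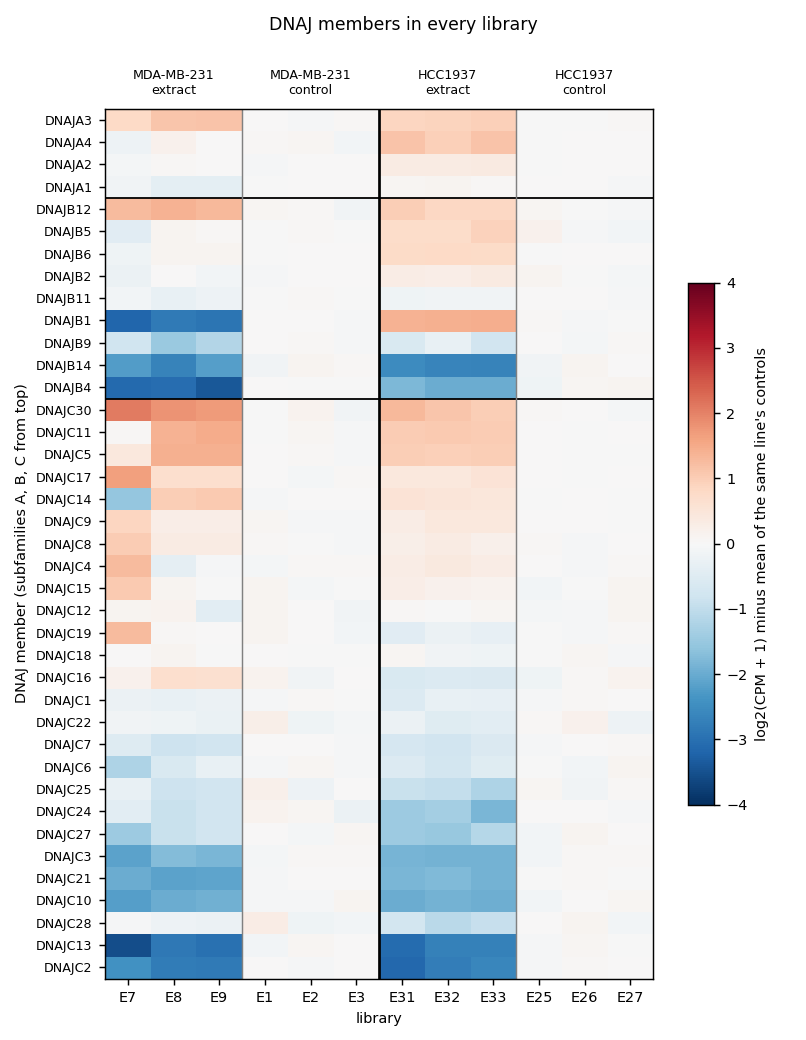
Log2(CPM + 1) of each of the 39 tested members in every library (columns, in groups of 3) minus the mean of the control libraries of the same line, with red above and blue below the controls. DNAJC2, DNAJC13, DNAJB14 and DNAJB4 are blue in all 6 extract libraries, while DNAJB1 is blue in E7 to E9 and red in E31 to E33.

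Both lines shared 6 of the called rises (DNAJA3, DNAJB12, DNAJC5, DNAJC9, DNAJC11 and DNAJC30) and 14 of the called falls (DNAJB4, DNAJB9, DNAJB14, DNAJC1, DNAJC2, DNAJC3, DNAJC6, DNAJC7, DNAJC10, DNAJC13, DNAJC21, DNAJC24, DNAJC25 and DNAJC27). DNAJB1 fell in MDA-MB-231 and rose in HCC1937, and DNAJC16 rose in MDA-MB-231 and fell in HCC1937. The remaining calls were made in 1 line. DNAJC8 and DNAJC17 rose and DNAJA1 and DNAJB11 fell in MDA-MB-231, while DNAJA2, DNAJA4, DNAJB2, DNAJB5 and DNAJB6 rose and DNAJC22 and DNAJC28 fell in HCC1937. DNAJC4, DNAJC12, DNAJC14, DNAJC15, DNAJC18 and DNAJC19 passed in neither.

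By subfamily, 1 of the 4 A members rose, 1 fell and 2 did not pass in MDA-MB-231, and in HCC1937 3 rose and 1 did not pass. Of the 9 tested B members, 1 rose, 5 fell and 3 did not pass in MDA-MB-231, against 5 rising, 3 falling and 1 not passing in HCC1937. Of the 26 C members, 7 rose, 11 fell and 8 did not pass in MDA-MB-231, and 4 rose, 14 fell and 8 did not pass in HCC1937. Of all tested genes, 33% rose and 32.8% fell in MDA-MB-231, and 32.7% rose and 39.1% fell in HCC1937. The medians in MDA-MB-231 were 0.11 for A, -0.20 for B and -0.20 for C on the log2 scale, and in HCC1937 they were 0.62, 0.31 and -0.43 in the same order. These counts moved with an offset for transcript length and GC content, described below. With it, 10 C members rose and 11 fell in MDA-MB-231 (median -0.01), 9 rose and 11 fell in HCC1937 (median -0.02), and 1 B member rose and 7 fell in MDA-MB-231 (median -0.64). Without E7, 9 C members rose and 15 fell in HCC1937.

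**Figure D2:**
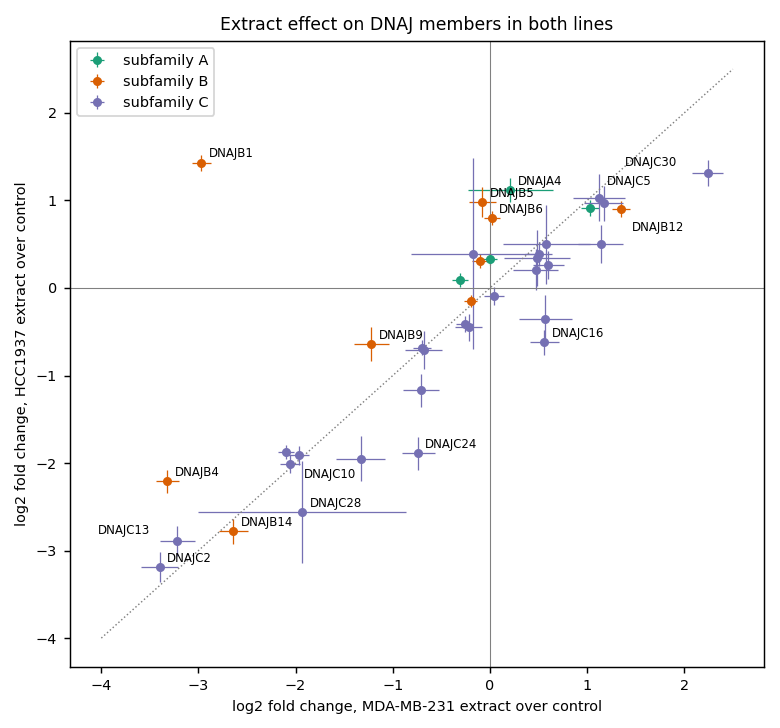
Log2 fold changes of extract over control for the 39 tested members in MDA-MB-231 (x axis) and HCC1937 (y axis), with standard errors as bars, colours for the subfamilies and a dotted line where both lines are equal. DNAJB1 lies furthest from that line, at -2.97 in MDA-MB-231 and 1.43 in HCC1937.

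Transcript length and GC content moved with the fold changes. Across the 39 members, the log2 fold change correlated with transcript GC at r = 0.58 in MDA-MB-231 and 0.66 in HCC1937, and with log2 transcript length at -0.23 and -0.33, against 0.44, 0.50, -0.34 and -0.33 over 14053 genes. These are descriptions, since all points share the same libraries. Of the 8 members with transcripts over 5000 nt and under 45% GC, among them DNAJB14, DNAJC3, DNAJC10, DNAJC13 and DNAJC21, 6 fell in MDA-MB-231 and 7 in HCC1937. In this class 1 member, DNAJC16, rose in MDA-MB-231 and none rose in HCC1937. The share of all genes of the same length and GC that fell was not counted. Of the 13 members over 50% GC, among them DNAJA3, DNAJB12, DNAJC5, DNAJC11 and DNAJC30, 6 rose and 2 fell in MDA-MB-231, and 8 rose and 2 fell in HCC1937. A model with an offset for length and GC in each library was therefore fitted as well. With the offset 13 members rose and 18 fell in MDA-MB-231, and 17 rose and 13 fell in HCC1937, where the member median became 0.27. Every member whose call the offset ended or turned is named below.

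**Figure D3:**
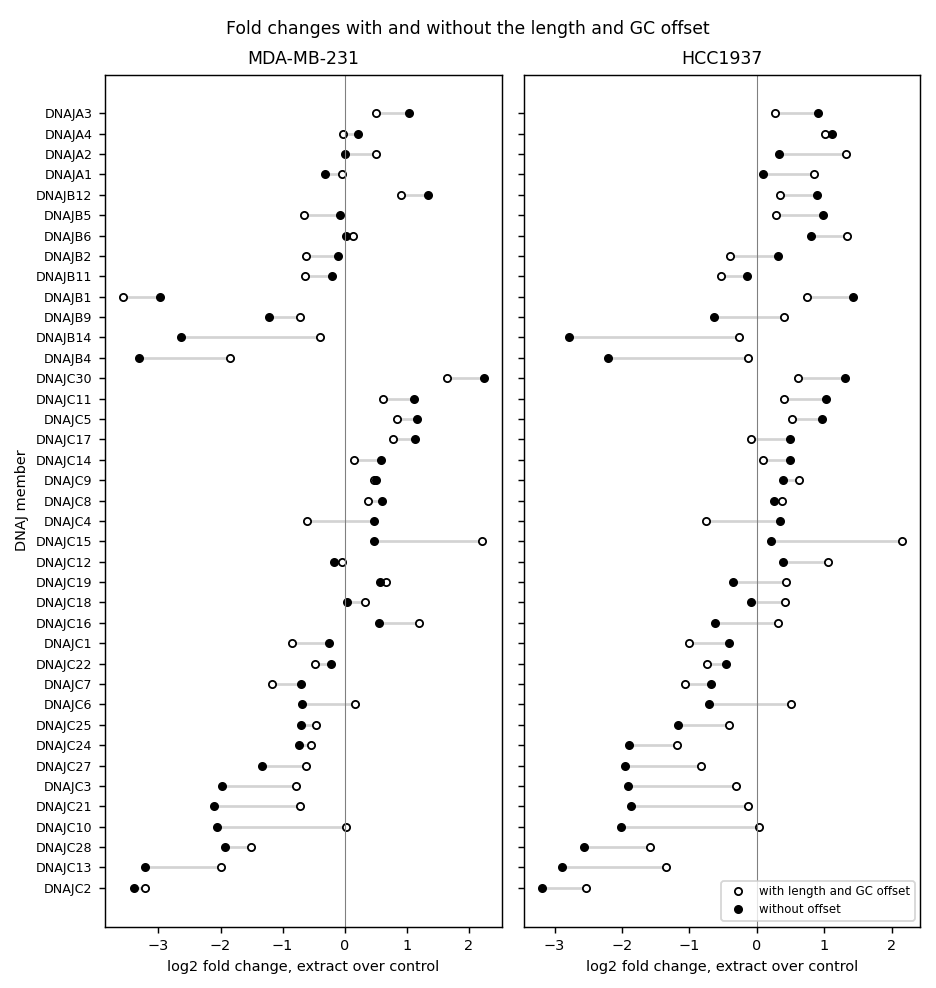
Log2 fold change of extract over control for each tested member without (filled circle) and with (open circle) the length and GC offset, in MDA-MB-231 (left) and HCC1937 (right). DNAJC2, DNAJC13, DNAJC30 and DNAJB1 stay on their side of 0 in both lines, while DNAJC10 moves to 0.02 and 0.04.

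The 4 subfamily A members are general J proteins of the cytosol (DNAJA1, DNAJA2 and DNAJA4) and mitochondria (DNAJA3). DNAJA3 lies on chromosome 16 from 4425805 to 4456775 (GRCh38) and has a principal transcript of 12 exons. It had 102, 127 and 128 CPM in MDA-MB-231 with extract, against 59.1, 55.8 and 59.6 CPM in the controls. HCC1937 libraries held 134, 138 and 144 CPM with extract, against 72.4, 72.2 and 76.4 CPM in the controls. All 6 extract libraries lay above all 6 controls. The log2 fold change was 1.03 ± 0.09 in MDA-MB-231 (SE; adjusted p = 1.62e-06) and 0.91 ± 0.09 in HCC1937 (adjusted p = 3.20e-06). With the offset the rise was smaller but still called, at 0.50 and 0.27.

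DNAJA1, a farnesylated partner of the constitutive HSP70 HSPA8, lies on chromosome 9 from 33025211 to 33039907 and has 9 exons. It had 169, 142 and 144 CPM in MDA-MB-231 with extract, against 185, 189 and 190 CPM in the controls, without overlap (-0.31 ± 0.08, adjusted p = 0.00413). With extract, HCC1937 had 150, 154 and 148 CPM, against 145, 143 and 138 CPM in the controls, and did not pass (0.09 ± 0.08, adjusted p = 0.337). With the offset the fall in MDA-MB-231 was not called (-0.05), and HCC1937 had a called rise (0.85, adjusted p = 1.84e-08). The annotation names 6 pseudogenes of DNAJA1, so part of its reads may be assigned uncertainly. The same holds for DNAJC19, with 9 named pseudogenes. It also holds for members whose exons overlap another gene on the same strand, among them DNAJB4 (GIPC2), DNAJC4 (NUDT22) and DNAJC9 (MRPS16).

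DNAJA2, which refolds cytosolic proteins with HSP70, lies on chromosome 16 from 46955362 to 46973788. It had 91.5, 98.5 and 97.9 CPM in MDA-MB-231 with extract and 93.2, 96.7 and 98 CPM in the controls, which overlapped. For HCC1937 the values were 90.5, 90.6 and 92.5 CPM with extract, against 71.1, 73 and 73.4 CPM in the controls (0.33 ± 0.07, adjusted p = 7.99e-04). The offset raised these values to 0.50 and 1.32, both called. DNAJA4, on chromosome 15 from 78264086 to 78282196, was nearly silent in MDA-MB-231, with 1, 10 and 5 counts with extract and 5, 5 and 3 counts in the controls. In HCC1937 it had 45.7, 39.9 and 45.2 CPM with extract, against 19.6, 20.1 and 20.4 CPM in the controls (1.12 ± 0.14, adjusted p = 1.39e-05).

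In subfamily B, DNAJB1 is the principal heat-inducible J protein of the cytosol, encoded on chromosome 19 from 14514770 to 14529770 with 3 exons. It had 201, 256 and 241 CPM in MDA-MB-231 with extract, against 1858, 1839 and 1784 CPM in the controls. HCC1937 libraries held 635, 641 and 659 CPM with extract, against 247, 234 and 239 CPM in the controls. The extract libraries of MDA-MB-231 overlapped the HCC1937 controls. Extract went with a 7.85-fold lower level in MDA-MB-231 (log2 fold change -2.97 ± 0.10, adjusted p = 9.66e-10) and a 2.69-fold higher level in HCC1937 (1.43 ± 0.09, adjusted p = 8.20e-08). The offset gave -3.57 and 0.75, both called. Exons of DNAJB1 overlap TECR and MIR639 on the other strand, so some of its reads may belong to them. The same limit holds for other members, among them DNAJB9 (PNPLA8), DNAJC2 (PMPCB), DNAJC7 (CNP), DNAJC11 (THAP3), DNAJC14 (ORMDL2), DNAJC16 (AGMAT) and DNAJC17 (GCHFR).

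DNAJB4, a close relative of DNAJB1 known as a chaperone of muscle, lies on chromosome 1 from 77979175 to 78017964. It had 8.54, 9.05 and 6.93 CPM in MDA-MB-231 with extract, against 82.9, 81.2 and 81.2 CPM in the controls (-3.32 ± 0.12, adjusted p = 1.88e-09). With extract, HCC1937 had 3.85, 3.3 and 3.28 CPM, against 14.1, 16.8 and 17.3 CPM in the controls (-2.21 ± 0.13, adjusted p = 2.73e-08). The groups were apart in both lines. Under the offset the fall was -1.85 and called in MDA-MB-231, and -0.13 and not called in HCC1937. The transcript has 33.1% GC.

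DNAJB5, on chromosome 9 from 34989641 to 34998900, is known in the heart as a binding partner of the deacetylase HDAC4. It had 25.4, 37.9 and 36.9 CPM in MDA-MB-231 with extract and 34.7, 36.3 and 35.1 CPM in the controls, which overlapped. For HCC1937 the values were 5.87, 5.91 and 6.83 CPM with extract, against 3.61, 2.97 and 2.85 CPM in the controls (0.98 ± 0.17, adjusted p = 2.16e-04). With the offset the value in HCC1937 was 0.29 and not called, and the value in MDA-MB-231 was -0.66 and called lower. DNAJB6, which keeps polyglutamine proteins from aggregating, overlapped between the groups of MDA-MB-231, with 214, 261 and 264 CPM with extract and 239, 247 and 245 CPM in the controls. In HCC1937 DNAJB6 had 202, 206 and 202 CPM with extract, against 115, 118 and 119 CPM in the controls (0.80 ± 0.08, adjusted p = 4.37e-06; 1.34 with the offset). DNAJB2, a neuronal member that binds ubiquitin chains, rose in HCC1937 by 0.31 on the log2 scale, a call that turned to -0.40 with the offset.

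**Figure D4:**
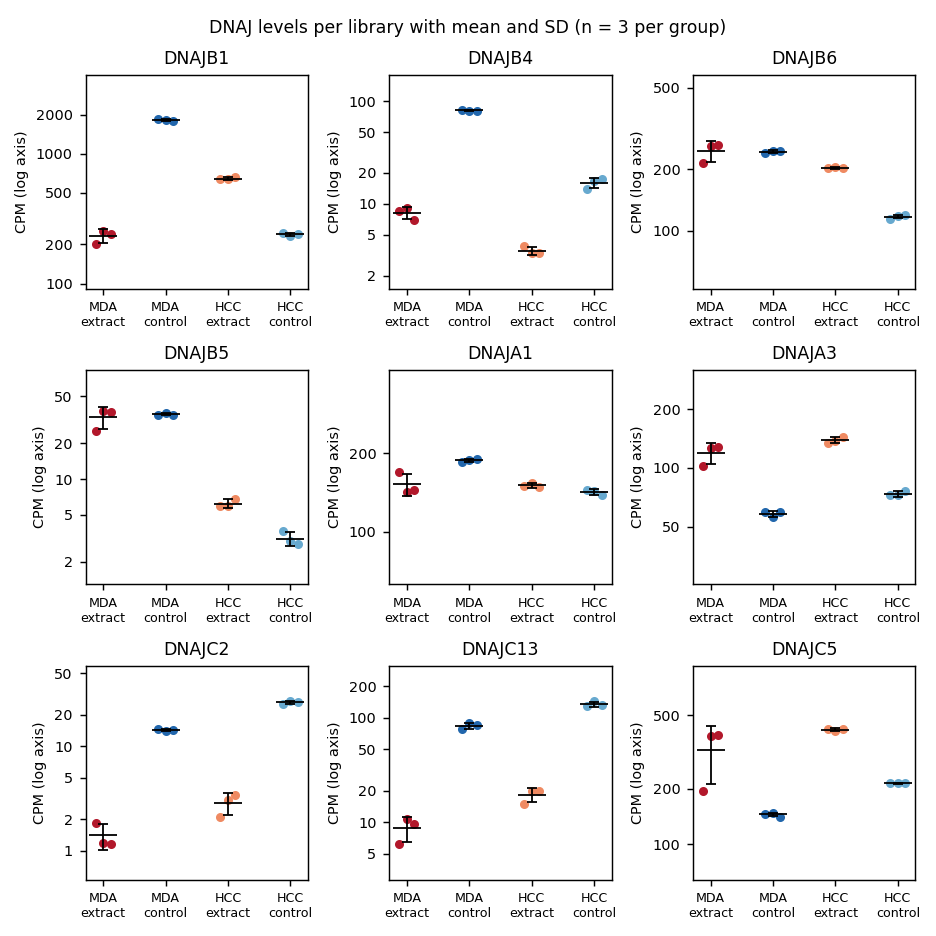
CPM in each library (points, log axis) of 9 members, with the group mean and SD as bars (n = 3), extract beside control in MDA-MB-231 and then in HCC1937. The 2 extract groups of DNAJB1 lie on opposite sides of their controls, and the lowest extract point of DNAJC5 in MDA-MB-231 is E7.

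Of 11 members of the endoplasmic reticulum, 2 rose, 7 fell and 2 did not pass in MDA-MB-231, and 1 rose, 7 fell and 3 did not pass in HCC1937. Of all tested genes, 33% rose and 32.8% fell in MDA-MB-231, and 32.7% rose and 39.1% fell in HCC1937. The same shares are the background for the mitochondrial, nuclear and vesicle members below. The medians of the endoplasmic reticulum members were -0.26 and -0.62 on the log2 scale. With the offset 3 rose and 6 fell in MDA-MB-231 (median -0.39), and 4 rose and 4 fell in HCC1937, where the median turned to 0.04. DNAJB12 and DNAJB14 are 2 related membrane proteins with a J domain on the cytosolic side, which take part in the disposal of misfolded membrane proteins, and they moved apart. DNAJB12 (chromosome 10, 72332830 to 72355230; 54.21% GC) had 58.6, 63.3 and 59.5 CPM in MDA-MB-231 with extract, against 25.4, 24.5 and 21.5 CPM in the controls (1.35 ± 0.09, adjusted p = 1.30e-07; 0.91 with the offset). In HCC1937 it had 68.2, 60.6 and 61 CPM with extract, against 35.6, 33.3 and 32.8 CPM in the controls (0.90 ± 0.09, adjusted p = 2.22e-06; 0.34 with the offset).

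DNAJB14 (chromosome 4, 99896248 to 99946726; 33.43% GC and 6075 nt) had 4.48, 3.07 and 4.61 CPM in MDA-MB-231 with extract, against 22.7, 26.7 and 25.6 CPM in the controls (-2.64 ± 0.15, adjusted p = 3.44e-08). HCC1937 libraries held 7.24, 6.59 and 6.49 CPM with extract, against 42.3, 50 and 47.5 CPM in the controls (-2.78 ± 0.14, adjusted p = 1.08e-08). All 6 extract libraries lay below all 6 controls. With the offset the values were -0.39, still called in MDA-MB-231, and -0.27, not called in HCC1937.

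DNAJC3 (chromosome 13, 95677139 to 95794989), the lumenal protein also known as P58IPK, is counted with the unfolded protein response. It had 9.18, 12.6 and 11.6 CPM in MDA-MB-231 with extract, against 41.1, 45.2 and 45.6 CPM in the controls (-1.97 ± 0.11, adjusted p = 3.87e-08; -0.78 with the offset). With extract, HCC1937 had 32, 31.3 and 31.1 CPM, against 109, 123 and 123 CPM in the controls (-1.91 ± 0.11, adjusted p = 2.63e-08; -0.31 with the offset). The groups were apart in each line, and the offset left both falls called. DNAJC10, a reductase of the lumen also called ERdj5, fell in MDA-MB-231 (-2.06) and HCC1937 (-2.01), but was at 0.02 and 0.04 with the offset and not called. Its annotated principal transcript of 20129 nt is long, and so the offset for it is uncertain.

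DNAJB9, or ERdj4, which restrains the stress sensor IRE1, fell in MDA-MB-231 (-1.22) and HCC1937 (-0.64), and the second turned to 0.40 with the offset. That call in HCC1937 was also lost without E33 (adjusted p from 3.23e-04 to 0.0556 over 19 alternatives). DNAJB11, or ERdj3, a secreted partner of the lumenal HSP70, fell in MDA-MB-231 (-0.20), a call that ended on leaving out E2 or E8 and when only the groups compared were fitted (adjusted p from 1.89e-07 to 0.114 over 19 alternatives, the highest in the last of these). DNAJC1, a ribosome-binding membrane protein, fell in MDA-MB-231 (-0.26) and HCC1937 (-0.41), and leaving out E2 or E8 ended the first of these calls (adjusted p from 2.71e-06 to 0.0716 over 19 alternatives). DNAJC25 fell in MDA-MB-231 (-0.71) and HCC1937 (-1.17), and its reads may be shared with the readthrough gene DNAJC25-GNG10, which contains its sequence.

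DNAJC16 (chromosome 1, 15526813 to 15592379), an ER protein known for a part in autophagosome formation, had 12.9, 18.8 and 18.5 CPM in MDA-MB-231 with extract, against 12.6, 10.3 and 11.4 CPM in the controls. For HCC1937 the values were 16.1, 17 and 16.5 CPM with extract, against 22.3, 26.1 and 27.8 CPM in the controls. Extract libraries lay above the controls in MDA-MB-231 and below them in HCC1937. In log2 terms the change was 0.56 ± 0.15 in MDA-MB-231 (adjusted p = 0.00527) and -0.62 ± 0.14 in HCC1937 (adjusted p = 0.00192). With the offset the value was 1.19 in MDA-MB-231 and turned to 0.32 in HCC1937, both called. DNAJC14, which aids receptor export from the ER, had 9.1, 57.3 and 60.1 CPM in MDA-MB-231 with extract, against 27.3, 29 and 28.9 CPM in the controls, so that E7 lay below and E8 and E9 above every control. It passed in neither line (0.58 in MDA-MB-231 and 0.50 in HCC1937). Without E7 it was called higher in MDA-MB-231 (1.05, adjusted p = 4.29e-14) and in HCC1937 (0.52, adjusted p = 1.99e-08). DNAJC18 was at 0.04 and -0.09 and passed in neither line, but was called higher in both with the offset (0.32 and 0.42).

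Of 7 mitochondrial members, 3 rose, none fell and 4 did not pass in MDA-MB-231, and 3 rose, 1 fell and 3 did not pass in HCC1937 (medians 0.57 and 0.34). Without E7 the median in MDA-MB-231 was 0.05, with 3 rising and 1 falling, and in HCC1937 5 rose and 2 fell. In both lines the called rises were DNAJA3, DNAJC11 and DNAJC30. DNAJC30 (chromosome 7, 73680969 to 73683453, 1 exon), which serves the turnover of complex I, had 13.2, 10.9 and 9.97 CPM in MDA-MB-231 with extract, against 2.37, 2.76 and 2.07 CPM in the controls. In HCC1937 it had 11.7, 10.2 and 9.43 CPM with extract, against 4.42, 4.29 and 3.97 CPM in the controls. It was 4.73-fold higher in MDA-MB-231 (2.24 ± 0.16, adjusted p = 2.25e-07) and 2.47-fold higher in HCC1937 (1.31 ± 0.15, adjusted p = 7.25e-06), without overlap. The offset gave 1.65 and 0.61, both called. The exon overlaps BUD23 on the other strand.

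DNAJC11 (chromosome 1, 6634168 to 6701924), an outer membrane protein bound to the cristae-forming MICOS complex, had 35.9, 92.5 and 99.5 CPM in MDA-MB-231 with extract, against 34.3, 36.9 and 33.9 CPM in the controls. E7 lay among the controls and the other 2 extract libraries above them. HCC1937 libraries held 171, 173 and 168 CPM with extract, against 84.3, 82.4 and 83.8 CPM in the controls. On the log2 scale it rose by 1.12 ± 0.27 in MDA-MB-231 (adjusted p = 0.00343) and by 1.03 ± 0.27 in HCC1937 (adjusted p = 0.00461). The first was 1.46 without E7, and with the offset the values were 0.61, called, and 0.41, not called. DNAJC15 and DNAJC19, both linked to the import motor of the inner membrane, did not pass in either line, but with the offset both were called higher in both lines. For DNAJC15 the offset gave 2.22 in MDA-MB-231 and 2.16 in HCC1937 (adjusted p = 3.88e-05 and 4.96e-05), and for DNAJC19 0.67 and 0.44. The principal transcript of DNAJC15, at 7853 nt, may not be the one expressed here, which leaves its offset and its place among the long transcripts uncertain. In MDA-MB-231 with extract E7 held 54.2 CPM of DNAJC15 and 66.8 CPM of DNAJC19, and the other 2 libraries held 27.6 and 25.4 CPM of DNAJC15 and 28.5 and 27.5 CPM of DNAJC19. DNAJC28 had few reads, with 9, 2 and 5 counts in HCC1937 with extract against 33, 44 and 31 in the controls (-2.56 ± 0.58, adjusted p = 0.00191), and 2, 1 and 0 counts in MDA-MB-231 with extract against 9, 1 and 2 in the controls. DNAJC4 did not pass, with 28.2 CPM in E7, 8.4 and 10.8 CPM in the other 2 extract libraries and 10.5, 11.4 and 11.4 CPM in the MDA-MB-231 controls, and the offset gave called falls in MDA-MB-231 (-0.61) and HCC1937 (-0.75).

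Of 5 members of the nucleus, the spliceosome or the ribosome, 3 rose and 2 fell in MDA-MB-231, and 1 rose, 2 fell and 2 did not pass in HCC1937 (medians 0.50 and 0.26). DNAJC2 (chromosome 7, 103312474 to 103344873), which sits on the ribosome as a partner of HSPA14, had 1.85, 1.19 and 1.16 CPM in MDA-MB-231 with extract, against 14.6, 13.9 and 14.4 CPM in the controls. With extract, HCC1937 had 2.1, 3.05 and 3.43 CPM, against 25.6, 26.9 and 26.3 CPM in the controls. Every extract library lay below every control. It was 10.5-fold lower in MDA-MB-231 (-3.40 ± 0.19, adjusted p = 3.66e-08) and 9.14-fold lower in HCC1937 (-3.19 ± 0.17, adjusted p = 1.59e-08). The offset changed the value little in MDA-MB-231, to -3.21, and made the fall in HCC1937 smaller, at -2.53. Both stayed called. DNAJC21, which matures the large ribosomal subunit, fell in MDA-MB-231 (-2.10) and HCC1937 (-1.87), or -0.72 with the offset in MDA-MB-231 and -0.13, not called, in HCC1937.

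The other three are DNAJC8 and DNAJC17, both of the splicing machinery, and DNAJC9, a histone chaperone. DNAJC17 (chromosome 15, 40765155 to 40807478) had 33.5, 16.8 and 16.8 CPM in MDA-MB-231 with extract, against 10.3, 9.53 and 10.4 CPM in the controls (1.14 ± 0.23, adjusted p = 8.42e-04; 0.75 without E7). For HCC1937 the values were 16.7, 16.6 and 18 CPM with extract, against 12.1, 11.9 and 12.3 CPM in the controls, and did not pass (0.50 ± 0.22, adjusted p = 0.057) although the groups were apart. DNAJC8 (0.60) and DNAJC9 (0.50) rose in MDA-MB-231, or 0.33 and 0.28 without E7, the library in which both were highest. The call of DNAJC9 in MDA-MB-231 ended when only the groups compared were fitted (adjusted p from 5.31e-05 to 0.0546 over 19 alternatives). The rise of DNAJC9 in HCC1937 (0.39) was lost on leaving out any of E25, E26, E27, E32 and E33 and with upper-quartile scaling (adjusted p from 2.72e-08 to 0.0778 over 19 alternatives).

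Of 5 members of vesicles and endocytosis, 1 rose and 3 fell in MDA-MB-231, and 1 rose and 4 fell in HCC1937 (medians -0.68 and -0.71). DNAJC13 (chromosome 3, 132417526 to 132539032, 56 exons), an endosomal protein also called RME-8, had 6.19, 10.7 and 9.57 CPM in MDA-MB-231 with extract, against 78, 87.9 and 84.9 CPM in the controls. In HCC1937 it had 15, 19.7 and 20 CPM with extract, against 129, 143 and 132 CPM in the controls. The groups were far apart in both lines. It was 9.34-fold lower in MDA-MB-231 (-3.22 ± 0.18, adjusted p = 3.17e-08; -2.00 with the offset) and 7.39-fold lower in HCC1937 (-2.89 ± 0.17, adjusted p = 3.95e-08; -1.35 with the offset).

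DNAJC5 (chromosome 20, 63895182 to 63936031) is the cysteine string protein, which keeps the exocytosis machinery of vesicles in shape. It had 195, 387 and 392 CPM in MDA-MB-231 with extract, against 145, 148 and 141 CPM in the controls. HCC1937 libraries held 421, 411 and 422 CPM with extract, against 214, 213 and 213 CPM in the controls. All extract libraries lay above the controls of their line, E7 the least so. The log2 fold changes were 1.17 ± 0.20 (adjusted p = 3.05e-04; 1.44 without E7 and 0.84 with the offset) and 0.97 ± 0.20 (adjusted p = 9.59e-04; 0.53 with the offset).

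DNAJC6 (chromosome 1, 65248219 to 65415869), or auxilin, uncoats clathrin vesicles, chiefly in neurons. It had 12.2, 19.3 and 24.6 CPM in MDA-MB-231 with extract, against 29.2, 31.8 and 29.4 CPM in the controls (-0.68 ± 0.19, adjusted p = 0.00882; -0.46 without E7). With extract, HCC1937 had 3.64, 3.05 and 3.89 CPM, against 5.72, 5.35 and 6.33 CPM in the controls (-0.71 ± 0.22, adjusted p = 0.0123). The call in HCC1937 ended without E32 (adjusted p from 5.42e-05 to 0.0559 over 19 alternatives), and the offset gave 0.16, not called, and 0.51, called higher. DNAJC22, whose Drosophila relative Wurst acts in endocytosis, fell in HCC1937 (-0.45), a call lost without E26, E32 or E33 and with DESeq2 size factors (adjusted p from 0.00508 to 0.0877 over 19 alternatives). DNAJC27, a small GTPase with a J domain, fell in MDA-MB-231 (-1.33) and HCC1937 (-1.95).

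Among members with other roles, DNAJC24 (chromosome 11, 31369840 to 31431849), which takes part in diphthamide synthesis on elongation factor 2, had 16.4, 11.8 and 12.7 CPM in MDA-MB-231 with extract, against 25.2, 23.6 and 19.2 CPM in the controls (-0.74 ± 0.17, adjusted p = 0.00215). For HCC1937 the values were 2.47, 2.77 and 1.7 CPM with extract, against 8.72, 8.74 and 8.26 CPM in the controls (-1.89 ± 0.19, adjusted p = 3.08e-06). Both falls were called with the offset, at -0.54 and -1.18. DNAJC7, which binds both HSP70 and HSP90, fell in MDA-MB-231 (-0.70) and HCC1937 (-0.68), and further with the offset (-1.17 and -1.06). DNAJC12, which binds the aromatic amino acid hydroxylases, had at most 16 counts in a library and passed in neither line.

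In HCC1937, extract and control libraries were apart for 37 of the 39 tested members, against 82.1% of all tested genes, and 8 of these 37 did not pass: DNAJA1, DNAJB11, DNAJC4, DNAJC8, DNAJC14, DNAJC15, DNAJC17 and DNAJC19. In MDA-MB-231 the groups were apart for 25 members, against 67.6% of all tested genes. The spread of each gene was estimated over all 12 libraries, E7 included. Without E7, 18 members rose and 19 fell in HCC1937, and 11 rose and 18 fell in MDA-MB-231. Of all 14133 genes, 5457 rose and 6147 fell in HCC1937 without E7, and 5354 rose and 5300 fell in MDA-MB-231.

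Per transcript length, DNAJB1 was the most abundant member in 3 of the 4 groups. Levels per length were counts divided by the length of the principal transcript and scaled to the same total in each library over all genes with a length, and their sum over the members shows the make-up of the family within a library. DNAJB1 made up 11, 13.8 and 12.9% of this sum in MDA-MB-231 with extract, against 53.7, 53.2 and 52.8% in the controls. In HCC1937 it made up 27.5, 27.4 and 28.1% with extract, against 14.5, 13.8 and 14% in the controls. Subfamily B as a whole held 38.8 to 44.9% in MDA-MB-231 with extract, against 71 to 71.3% in the controls, and 50.9 to 51.5% in HCC1937 with extract, against 39.6 to 40.2% in the controls. Subfamily C held 38.4 to 44.2% in MDA-MB-231 with extract, against 20.1 to 20.3% in the controls, and 33.3 to 34% in HCC1937 with extract, against 44.4 to 45.1% in the controls. Subfamily A held 16.7 to 17% in MDA-MB-231 with extract, against 8.43 to 8.89% in the controls. In HCC1937 it held 15.1 to 15.3% with extract, against 15.3 to 15.5% in the controls. The shares of the groups did not overlap within a line for B or C, nor for A in MDA-MB-231. A share depends on the other members. Shares, sums and the order of levels also depend on the transcript taken as principal. That is uncertain for DNAJC10 (20129 nt) and DNAJC15 (7853 nt), both of subfamily C. In MDA-MB-231 controls DNAJC10 averaged 145 CPM but 18.1 per length. The summed level of C itself was 410 to 646 in MDA-MB-231 with extract, against 760 to 780 in the controls. On this scale it was lower while its share was higher. In HCC1937 the summed level of C was 554 to 568 with extract, against 898 to 907 in the controls. That of B was 844 to 860 with extract, against 796 to 812 in the controls. Levels per length carry no TMM scaling, so between groups they can go against CPM. DNAJA1 in HCC1937 averaged 102 with extract and 160 in the controls per length, but 151 and 142 CPM. A lower sum on this scale is therefore not a fall in CPM.

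**Figure D5:**
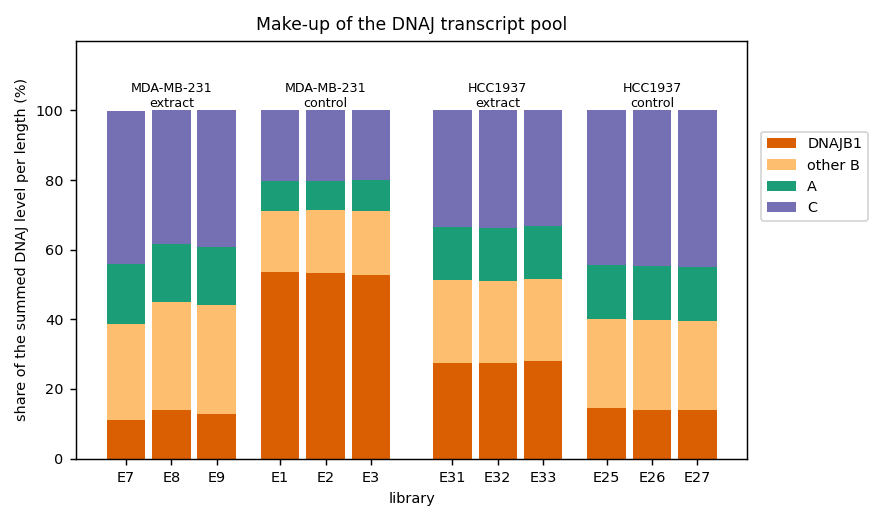
Share of DNAJB1, the other B members, the A members and the C members in the summed DNAJ level per transcript length (percent) in each library, extract beside control for MDA-MB-231 and then HCC1937. DNAJB1 takes 52.8 to 53.7% in the MDA-MB-231 controls and at most 28.1% in every library of the other 3 groups.

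The order of levels per length differed between the groups. In MDA-MB-231 with extract the highest were DNAJB6 (269 ± 99.8, SD, n = 3), DNAJB1 (181 ± 67.9), DNAJC5 (114 ± 61.5) and DNAJA1 (107 ± 22.1). Neighbours in this order overlapped, but overlap was judged across libraries and the order within each library was not compared. The summed member level was 929 in E7, against 1642 in E8 and 1651 in E9, which widens these ranges. In the MDA-MB-231 controls DNAJB1 (2023 ± 32.9) led, followed by DNAJB6 (380 ± 12.8), DNAJA1 (198 ± 5.91) and DNAJC7 (149 ± 2.2), each apart from the next. In HCC1937 with extract the order was DNAJB1 (461 ± 8.42), DNAJB6 (205 ± 2.84), then DNAJC5 and DNAJC8 (130 ± 1.68 and 130 ± 5.52), which overlapped. In the HCC1937 controls it was DNAJB1 (285 ± 6.6), DNAJB11 (214 ± 6.06), DNAJB6 (195 ± 3.61) and DNAJC8 (180 ± 6.82), each apart from the next.

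The difference of the extract effects, HCC1937 minus MDA-MB-231, asks whether the lines responded unequally. It was called for 11 of the 39 members (28.2%), against 32.1% of all tested genes (11.5% higher and 20.6% lower). The effect was higher in HCC1937 for 7 members and lower for 4. Of the A members 2 were higher and of the B members 5 were higher and 1 lower, while of the 26 C members 3 were lower and none higher. The member median was -0.09 and that of all genes -0.16. DESeq2 size factors moved the median of all genes to -0.05, a shift of over 0.1, and that of the members to 0.03. Without E7, 10 members were called higher and 10 lower, in place of 7 and 4, and with the offset 11 were higher and 5 lower. Of the C members, 2 were then higher and 8 lower without E7, and 4 higher and 4 lower with the offset.

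DNAJB1 had the largest difference among the members, 4.40 ± 0.14 on the log2 scale (adjusted p = 2.61e-09), or 4.33 with the offset and 4.32 without E7. DNAJB4 followed at 1.11 ± 0.17 (adjusted p = 5.55e-04), having fallen in both lines, and DNAJB5 at 1.06 ± 0.22 (adjusted p = 0.00347). The extract effect was lower in HCC1937 for DNAJC16 (-1.18 ± 0.20, adjusted p = 0.00112), DNAJC24 (-1.15 ± 0.25, adjusted p = 0.00518) and DNAJC30 (-0.94 ± 0.22, adjusted p = 0.00664), the last having risen in both lines. These 6 stayed called with the offset. Smaller differences were called for DNAJB6 (0.78), DNAJB2 (0.41), DNAJA1 (0.40), DNAJA2 (0.33) and DNAJB12 (-0.45). The call for DNAJB2 ended with the offset (0.23) and on leaving out E2, E3, E26, E27 or E33 (adjusted p from 2.43e-05 to 0.0647 over 18 alternatives). That for DNAJA2 ended without E3 or E25 (adjusted p from 1.23e-10 to 0.0543 over 18 alternatives), and that for DNAJB12 without E32 or E33 and with DESeq2 size factors (-0.34; adjusted p from 2.89e-04 to 0.0607 over 18 alternatives).

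The lines differed before treatment. Between the controls, HCC1937 against MDA-MB-231, 14 members were higher, 19 lower and 6 did not pass. That is 84.6% called, against 75.3% of all tested genes (38.7% higher and 36.7% lower), with a median of -0.37 over members and 0.04 over all genes. This comparison shares its control libraries with the extract effects above. All 9 tested B members were called, 3 higher and 6 lower in HCC1937. The groups were apart for 37 of the 39 members, against 88.3% of all tested genes.

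DNAJA4 was 89.7-fold higher in HCC1937 controls (6.49 ± 0.23, adjusted p = 4.16e-10), with 511, 610 and 579 counts there, against 5, 5 and 3 counts in MDA-MB-231 controls. DNAJC3 (1.43 ± 0.11, adjusted p = 1.90e-07) and DNAJC11 (1.25 ± 0.27, adjusted p = 0.00135) were higher as well. DNAJB5 was 11.3-fold lower in HCC1937 controls (-3.49 ± 0.17, adjusted p = 3.72e-09), DNAJB1 7.61-fold lower (-2.93 ± 0.10, adjusted p = 2.76e-10) and DNAJC6 5.2-fold lower (-2.38 ± 0.21, adjusted p = 7.26e-07). DNAJB4 was also lower there (-2.35), so that the family DNAJB1, DNAJB4 and DNAJB5 was lower in HCC1937 controls in all 3 members. The call for DNAJC5 (0.56) ended on leaving out any one of the 6 control libraries (adjusted p from 2.47e-14 to 0.066 over 19 alternatives), and that for DNAJC15 (-0.63) on leaving out E1, E3, E25 or E26 and with the offset (-0.59; adjusted p from 2.27e-08 to 0.0888 over 19 alternatives).

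The partners of the J proteins were described from lists of HSP70 proteins, of the exchange factors that release ADP from HSP70, of cofactors that link HSP70 to HSP90, and of heat shock factors. The background for these lists and for the other J proteins was 33% of all tested genes rising and 32.8% falling in MDA-MB-231. In HCC1937 it was 32.7% rising and 39.1% falling. Of 12 HSP70 proteins 1 rose, 6 fell and 5 did not pass in MDA-MB-231 (median -0.30), and 8 rose, 2 fell and 2 did not pass in HCC1937 (median 0.91). With the offset these counts became 5 rising and 5 falling in MDA-MB-231, and 11 rising and none falling in HCC1937. HSPA8, the constitutive HSP70, averaged 1158 CPM in MDA-MB-231 with extract, against 4775 CPM in the controls (-2.04 ± 0.08, adjusted p = 2.62e-09), and 2913 CPM in HCC1937 with extract, against 834 CPM in the controls (1.80 ± 0.08, adjusted p = 4.82e-09). The inducible HSPA6 averaged 11.5 CPM in MDA-MB-231 with extract, against 80.1 CPM in the controls, and 45.5 CPM in HCC1937 with extract, against 0.0714 CPM in the controls. Both calls of HSPA8 and of HSPA6 were lower in MDA-MB-231 and higher in HCC1937, as for DNAJB1.

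Of 14 exchange factors 6 rose and 5 fell in MDA-MB-231, and 5 rose and 6 fell in HCC1937 (medians 0.05 and -0.24). That is 42.9% rising and 35.7% falling in MDA-MB-231, and 35.7% rising and 42.9% falling in HCC1937, near the background given above. With the offset 9 rose and 4 fell in MDA-MB-231, and 7 rose and 1 fell in HCC1937, where the median turned to 0.42. HSPH1 fell in both lines (-3.48 and -1.50), and so did HSPA4L (-2.71 and -2.11), but in HCC1937 neither was called with the offset (0.04 and -0.01). BAG3, which links HSP70 to autophagy, rose by 1.37 in HCC1937 and was at -0.26 in MDA-MB-231, both called. Of 17 cofactors 11 rose and 2 fell in MDA-MB-231, and 10 rose and 2 fell in HCC1937 (medians 0.43 and 1.21). The shares were 64.7% rising and 11.8% falling in MDA-MB-231, and 58.8% rising and 11.8% falling in HCC1937. STIP1, which bridges HSP70 and HSP90, rose in MDA-MB-231 (0.79) and HCC1937 (1.53), while the inducible HSP90AA1 fell in MDA-MB-231 (-3.16) and HCC1937 (-1.79), as did CHORDC1 (-3.12 and -1.73). With the offset the cofactor medians were 0.32 and 0.61, and 4 fell in MDA-MB-231. Of 4 genes on the heat shock factor list, 1 rose, 2 fell and 1 did not pass in MDA-MB-231. In HCC1937, 2 rose and 2 fell. In both lines HSF1 rose (1.17 and 1.49), while HSF4 (-1.75 and -2.23) and HSF2 (-1.10 and -0.85) fell. With the offset HSF2 was not called in HCC1937 (0.09). The medians of this list were -0.32 and -0.06, or -0.14 and 0.35 with the offset.

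Of 7 J proteins with other symbols 5 were tested. Of these 1 rose, 2 fell and 2 did not pass in MDA-MB-231, and 1 rose, 3 fell and 1 did not pass in HCC1937 (medians -0.16 and -0.39). SEC63, the J protein of the ER translocon, fell in both (-2.01 and -2.06; -0.62 and -0.31 with the offset, both called). The readthrough DNAJC25-GNG10 fell in HCC1937 (-1.71) and was at -0.13, not called, in MDA-MB-231.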

How the data were processed

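RNA was sequenced from 12 libraries in 4 groups, mapped to groups by their sample titles. The labels' protocols describe poly-T capture of messenger RNA but name a kit for total RNA. Per the submitters' processing notes, reads were checked with FastQC 0.12.1, trimmed with fastp 0.23.4 and quantified with Salmon 1.10.3 on GRCh38, and DESeq2 ran in R 4.4.1 (annotation release and strand setting: not given in the sources used here). Expected counts per gene make up the deposited table, with no scaling for depth by the authors. The 1 row with no symbol was left out, and values were rounded to whole counts, since 52.8% were not whole.

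The analysis ran edgeR 4.0.16 (R 4.3.3): filterByExpr on the groups (14133 genes kept), TMM scaling, 1 model with a term for each of the 4 groups over all 12 libraries, and the quasi-likelihood F test with Benjamini-Hochberg adjustment over all tested genes, called at 0.05. Standard errors are the log2 fold change divided by the square root of F. Levels of single members are CPM, means are ± SD, and floors cover counting error only.

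Transcript length, GC and exon overlaps came from the principal transcripts of GENCODE release 29 (GRCh38), with a length for 99.4% of tested genes. The length and GC offset was a smooth surface fitted in each library with mgcv 1.9.3 to log2 CPM (prior count 2) and passed to edgeR. Other alternatives were DESeq2 size factors, upper-quartile scaling, the DESeq2 1.42.0 Wald test, no filter, only the groups compared, no mitochondrially encoded genes, and leaving out each library. Members and lists were chosen with earlier results of these data known. Values are given in every library for each A member and, in B and C, for the 4 largest called rises and falls per line with a mean of at least 5 CPM, the 3 largest differences between lines and between controls in each direction. DNAJB6, DNAJC4, DNAJC14, DNAJC15, DNAJC19 and the low-count members were added after their values were seen. Protein sequences are not used here.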

Additional observations from a re-analysis of the deposited data

Results flagged for a closer look

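For 11 members the extract effect in HCC1937 differed from that in MDA-MB-231 by the interaction contrast of edgeR's quasi-likelihood model. The difference (effect in HCC1937 minus effect in MDA-MB-231, log2) was 4.40 for DNAJB1, 1.11 for DNAJB4, 1.06 for DNAJB5, 0.78 for DNAJB6, 0.41 for DNAJB2, 0.40 for DNAJA1 and 0.33 for DNAJA2. It was -1.18 for DNAJC16, -1.15 for DNAJC24, -0.94 for DNAJC30 and -0.45 for DNAJB12. Line, medium and extract concentration cannot be told apart in these differences. DNAJB1 and DNAJC16 are the members called in opposite directions in the 2 lines. Only DNAJB1 among these 2 kept opposite calls with the length and GC offset, since DNAJC16 was then called higher in both.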

How the results depend on the processing

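Over 39 members, 4 comparisons and all alternatives, 2790 values stayed called in their direction or stayed uncalled, where some changed sign. Without a change of sign, 73 gained a call and 46 lost one. Another 12 changed sign with a call in the main fit, in the alternative or in both. These 12 arose with the length and GC offset, apart from DNAJC4 without E7. In MDA-MB-231 they were DNAJC4 (-0.61), DNAJC6 (0.16) and DNAJC10 (0.02). In HCC1937 they were DNAJB2 (-0.40), DNAJB9 (0.40), DNAJC4 (-0.75), DNAJC6 (0.51), DNAJC10 (0.04), DNAJC16 (0.32), DNAJC18 (0.42) and DNAJC19 (0.44). Only DNAJB2, DNAJB9, DNAJC6 and DNAJC16 in HCC1937 were called in opposite directions by the 2 fits. The difference between lines of DNAJC4 was 0.57 without E7. The offset rests on transcript length and GC content, and its size for each member depends on the transcript taken as principal.

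The median log2 fold change of the members in MDA-MB-231 was -0.19 with DESeq2 size factors and with the DESeq2 Wald test, -0.24 with upper-quartile scaling, -0.18 with only the groups compared, -0.05 with the offset, and -0.24 to -0.09 when libraries were left out. In HCC1937 it was 0.27 with the offset, 0.00 with DESeq2 size factors and with the DESeq2 Wald test, and -0.17 with upper-quartile scaling. For the difference between lines it was 0.03 with DESeq2 size factors and with the DESeq2 Wald test and 0.10 with the offset. There 11 members were called higher with the offset, and 3 to 10 were called lower when libraries were left out, 10 of them without E7. For HCC1937 against MDA-MB-231 controls the median was -0.44 with DESeq2 size factors and with the DESeq2 Wald test, -0.47 with upper-quartile scaling, 0.0 with no filter, where untested members enter, -0.22 with only the groups compared and -0.32 with the offset. The cause of the other moves was not tested.

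No paired analysis was possible because the groups share no replicate numbers. Depth limits DNAJA4 in MDA-MB-231, DNAJC12 and DNAJC28, which had few counts.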
